A study of Homo sapiens with 4 samples.

Results

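The genes described here control the passage of cells out of G1, the phase of growth before DNA is copied, into S phase, in which it is copied. They are *CCNE1*, *CCNE2*, *CCND1* and *CCND3* (cyclins E1, E2, D1 and D3), *CDK2*, *CDK4* and *CDK6* (the kinases these cyclins activate), *CDKN1A* and *CDKN1B* (the kinase inhibitors p21 and p27) and *E2F1* (a transcription factor). They were taken by gene symbol, 10 genes of the 16708 listed in at least 1 of the 4 libraries, and all 10 were among the 11829 genes that averaged at least 0.5 RPKM (mapped reads scaled to gene length and library total) and entered the test. *CCNE1* was picked because an earlier reading of the same comparison had shown it higher after the knockdown, so its difference is given as a description and supports nothing. The other 9 were picked by role.

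Entry into S phase runs through the retinoblastoma protein RB1 and its relatives p107 (*RBL1*) and p130 (*RBL2*), which hold E2F factors in check. D-type cyclins with CDK4 or CDK6, and then E-type cyclins with CDK2, phosphorylate these pocket proteins and free the E2F factors, which drive genes for DNA synthesis and, among others, *CCNE1* and *E2F1* themselves. p21 and p27 bind cyclin-CDK complexes and restrain CDK2. Cyclin E is present for a short part of the cycle, and its excess is a common feature of tumors.

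The QKI-knockdown cells stably expressed 1 shRNA (sh-Q3) that targets all isoforms of *QKI*, an RNA-binding protein that regulates splicing, and the control cells expressed an shRNA against luciferase (sh-Luc). Both shRNAs were delivered by retrovirus into BEAS2B, a line of human bronchial epithelial cells that the labels call virus transformed, grown in Dulbecco's medium with serum and used at passages 15 to 18. The virus used to make this line carries the SV40 T antigen, which binds RB1 and its relatives, so a G1/S pathway of unmodified cells was not what was sampled. Each group had 2 libraries, numbered 1 and 2, and no label states whether these came from separate cultures, so the spread between them may be technical. The study also measured growth, but no growth value belongs to these libraries, and mRNA levels were not set against growth. In bulk RNA, a changed share of cells in a phase of the cycle and a changed mRNA level per cell cannot be told apart.

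The recovered totals were 20571555 and 34862008 reads in the QKI-knockdown libraries 1 and 2, against 20052951 and 34706058 reads in the control libraries 1 and 2. Between 15159 and 15587 genes were listed per library. *QKI* itself stood at 2.52 and 3.85 RPKM in the QKI-knockdown libraries, against 8.94 and 14.6 RPKM in the control libraries, which put its ratio at 0.282 within number 1 and 0.264 within number 2. Of 12 epithelial markers, 8 were listed and 6 reached 0.5 RPKM in at least 1 library. The epithelial keratin genes *KRT8* (227 and 109 RPKM in the QKI-knockdown libraries, 248 and 91.5 RPKM in the control libraries) and *KRT18* (189 and 120 RPKM in the QKI-knockdown libraries, 169 and 103 RPKM in the control libraries) were high, the basal keratin genes *KRT5* and *KRT14* were not listed, and *CDH1* (E-cadherin) was at most 0.181 RPKM. *PTPRC*, which marks all leukocytes, was near 0, and 0 of 5 endothelial and 0 of 6 ciliated or secretory airway markers reached 0.5 RPKM in any library, while 2 of 6 leukocyte markers did (*CD68* and *CD14*) and 2 of 7 fibroblast markers did (*COL1A1*, 54.1 and 29.5 RPKM in the QKI-knockdown libraries and 51.5 and 18.6 RPKM in the control libraries, and *PDGFRB*).

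Short motifs of QKI and of E2F factors were searched, as exact letters only, in the transcripts and promoters of these genes. Introns were not searched. QKI binds a short motif, written as DNA ACTAAC or ACTAAT, and both forms were searched on the transcript strand of the MANE Select transcript of each gene. The motif was found in 5 of 10 genes, *CCNE2*, *CDK4*, *CDK6*, *CDKN1A* and *CDKN1B*, against 48.3% of 11266 tested genes with such a transcript. It was absent from the 1954 bases of the *CCNE1* transcript, and also from those of *CCND1*, *CCND3*, *CDK2* and *E2F1*, which says only that these letters are not in those transcripts. The median transcript length was 2325.5 bases for the 10 genes and 3342.5 bases for all, so the shares are not matched for length. The windows below are shown because they are sites of the inhibitors, of *CDK6* and of *RBL1*, a gene to which the results return. They lie in the 3′ UTR except that of *CDK6*, which is 1 of 4 matches in that transcript and lies in its coding sequence. Capitals mark the motif, and positions are in hg19, at chr6:36654831-36654860 on the plus strand (*CDKN1A*), chr12:12875052-12875081 on the plus strand (*CDKN1B*), chr7:92404083-92404112 on the minus strand (*CDK6*), and on the minus strand at chr20:35626920-35626949, chr20:35625374-35625403 and chr20:35625041-35625070 (*RBL1* sites 1, 2 and 3).
CDKN1A: gtctttcctggcACTAACgttgagcccctg
CDKN1B: ctgaaaaattatACTAACttatttatgtta
CDK6: cagagaaaccaaACTAACtttagtgtttga
RBL1 site 1: ccttttaaaaatACTAATagtccggccagg
RBL1 site 2: gatttggccgtcACTAATtagtattctcaa
RBL1 site 3: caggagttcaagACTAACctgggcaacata

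For the promoters, 4 forms of the E2F motif (TTTCCCGC, TTTCGCGC, TTTGCCGC and TTTGGCGC) were searched on both strands of the RefSeq promoters on GRCh38.p14, each running from 250 bases before to 50 bases after a start. Of the 10 genes, 7 had an entry, with 10 promoters in all, and 1 promoter held the motif, that of *E2F1*, with 2 matches, against 3.31% of 35116 promoters. The promoter of *RBL1* also held 2 matches, and that of *CCNE1* none, which says only that these 4 forms are not in that window. These 3 are printed because *CCNE1* and *RBL1* had the largest differences between the groups among the pathway genes described here, and *E2F1* is the factor that binds such motifs. Capitals mark the motif on either strand, and the windows are chr19:29811741-29812040 on the plus strand (*CCNE1*), chr20:33686336-33686635 on the minus strand (*E2F1*) and chr20:37095948-37096247 on the minus strand (*RBL1*).
CCNE1: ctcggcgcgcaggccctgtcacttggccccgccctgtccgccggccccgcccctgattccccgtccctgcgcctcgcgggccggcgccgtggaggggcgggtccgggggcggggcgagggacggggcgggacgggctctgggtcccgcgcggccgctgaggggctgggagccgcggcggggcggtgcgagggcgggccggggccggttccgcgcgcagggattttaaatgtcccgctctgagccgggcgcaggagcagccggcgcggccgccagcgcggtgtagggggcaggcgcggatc
E2F1: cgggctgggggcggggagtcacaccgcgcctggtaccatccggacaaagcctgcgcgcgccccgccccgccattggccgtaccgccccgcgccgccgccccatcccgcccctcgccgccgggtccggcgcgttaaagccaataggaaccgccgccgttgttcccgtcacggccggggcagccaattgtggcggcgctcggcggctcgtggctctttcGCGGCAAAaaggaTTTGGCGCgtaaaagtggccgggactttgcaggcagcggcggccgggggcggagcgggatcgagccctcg
RBL1: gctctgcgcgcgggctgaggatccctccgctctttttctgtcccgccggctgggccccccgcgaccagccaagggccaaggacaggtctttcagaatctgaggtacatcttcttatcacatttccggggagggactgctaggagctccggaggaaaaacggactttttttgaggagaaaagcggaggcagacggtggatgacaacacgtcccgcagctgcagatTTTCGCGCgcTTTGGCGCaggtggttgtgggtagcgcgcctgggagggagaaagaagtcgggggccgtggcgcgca

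The level of *CCNE1*, the cyclin that activates CDK2 late in G1, was 6.30 and 5.53 RPKM in the QKI-knockdown libraries 1 and 2, against 4.53 and 3.77 RPKM in the control libraries 1 and 2. Both QKI-knockdown libraries lay above both control libraries, and the means were 5.91 ± 0.538 RPKM in QKI-knockdown cells and 4.15 ± 0.538 RPKM in control cells (SD, n = 2 each). These levels rested on 392 and 584 reads in the QKI-knockdown libraries, against 275 and 396 reads in the control libraries. Within number 1 the QKI-knockdown library had 1.39 times the control level (exact Clopper-Pearson 95% interval 1.19 to 1.63), and within number 2 it had 1.47 times the control level (1.29 to 1.67). These intervals cover counting error only. The recovered reads over genes sum to 1.35 to 1.53 times the totals. Some reads were thus probably counted more than once, which would make the intervals too narrow. The mean difference on the log2(RPKM + 0.5) scale was 0.47, with 0.43 within number 1 and 0.50 within number 2. Its size exceeded that of 98.7% of the 11829 tested genes. *CCNE1* lies on chromosome 19 (hg19 chr19:30302898-30315219, plus strand), and no other protein-coding gene overlaps it in the annotation.

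*CCNE1* was the only one of the 10 genes whose groups did not overlap, where 8.6% of all tested genes had groups that did not overlap and 5.71% had both QKI-knockdown libraries above both control libraries. It was also the only one with a log2 difference of at least 0.4 in both numbers, which 0.524% of tested genes had. Since the comparison chose it, nothing is read from these shares.

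**Figure D1:**
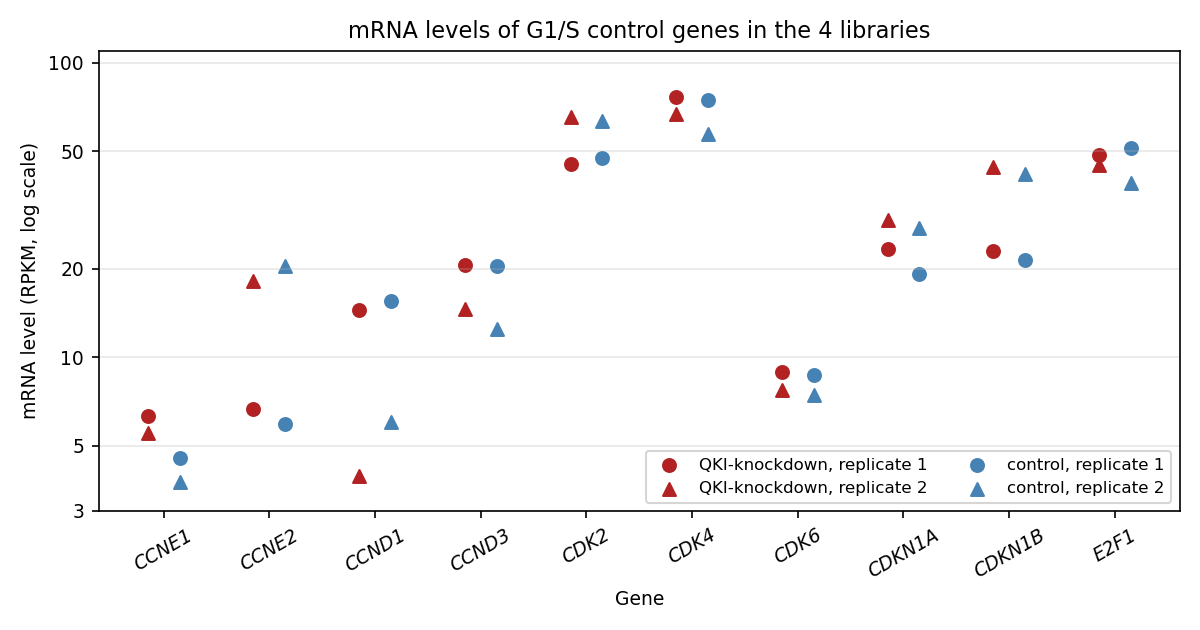
mRNA levels (RPKM, log scale) of the 10 genes, with 1 point per library, QKI-knockdown left (red) and control right (blue) of each gene, circles for number 1 and triangles for number 2. Both QKI-knockdown points of *CCNE1* (6.30 and 5.53 RPKM) lie above both control points (4.53 and 3.77 RPKM), while for each other gene the groups overlap.

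*CCNE2*, the close relative of *CCNE1* that also activates CDK2, had 6.68 and 18.2 RPKM in the QKI-knockdown libraries, against 5.91 and 20.4 RPKM in the control libraries. Its difference had no common direction, with a ratio of 1.13 (1.03 to 1.24) within number 1 and 0.892 (0.857 to 0.928) within number 2, and a mean log2 difference of 0.00. The libraries numbered 2 were the high ones in both groups. *INTS8* overlaps *CCNE2* on the opposite strand, and without strand information their reads cannot be told apart.

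*CCND1*, the D-type cyclin that responds to growth factors, had 14.5 and 3.94 RPKM in the QKI-knockdown libraries, against 15.5 and 6.03 RPKM in the control libraries. It was the 1 gene of the 10 that lay below control within both numbers, by a ratio of 0.933 (0.883 to 0.987) within number 1 and 0.653 (0.606 to 0.704) within number 2. Most of its mean log2 difference of -0.33 came from number 2 (-0.10 within number 1 and -0.56 within number 2). The groups overlapped, because the QKI-knockdown library 1 was higher than the control library 2. *LTO1* overlaps it on the opposite strand.

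*CCND3*, the other D-type cyclin gene, had 20.5 and 14.6 RPKM in the QKI-knockdown libraries, against 20.4 and 12.5 RPKM in the control libraries. Its ratio was 1.00 (0.968 to 1.04) within number 1 and 1.17 (1.13 to 1.21) within number 2. The D-type cyclin genes thus lay on opposite sides of control within number 2. Their relative *CCND2* was close to the detection limit, with 0 and 1 reads in the QKI-knockdown libraries and 20 and 1 reads in the control libraries.

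The kinase genes had ratios between 0.949 and 1.17 within the numbers. *CDK2*, the partner of cyclins E and A, had 45.2 and 65.3 RPKM in the QKI-knockdown libraries, against 47.6 and 63.4 RPKM in the control libraries. Its ratios were 0.949 (0.899 to 1.002) within number 1 and 1.03 (0.995 to 1.07) within number 2, and both intervals include equal levels. *PMEL* overlaps *CDK2* on the opposite strand.

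*CDK4*, a partner of the D-type cyclins, had 76.6 and 67.2 RPKM in the QKI-knockdown libraries, against 74.9 and 57.3 RPKM in the control libraries. Its ratio was 1.02 (0.997 to 1.05) within number 1 and 1.17 (1.15 to 1.20) within number 2, like that of *CCND3* in each number. *TSPAN31* overlaps *CDK4* on the opposite strand. *CDK6*, the other kinase of the D-type cyclins, had 8.87 and 7.75 RPKM in the QKI-knockdown libraries, against 8.70 and 7.43 RPKM in the control libraries. Its ratios were 1.02 (0.964 to 1.08) within number 1 and 1.04 (0.996 to 1.09) within number 2, so a difference above 1.09-fold lies outside both counting intervals.

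Both inhibitor genes lay above control within both numbers, by small amounts, also with the library medians set equal. *CDKN1A* had 23.3 and 29.3 RPKM in the QKI-knockdown libraries, against 19.2 and 27.4 RPKM in the control libraries. Its ratio was 1.22 (1.15 to 1.28) within number 1 and 1.07 (1.03 to 1.11) within number 2. *CDKN1B* had 22.9 and 44.1 RPKM in the QKI-knockdown libraries, against 21.4 and 41.9 RPKM in the control libraries. Its ratios were 1.07 (1.01 to 1.13) within number 1 and 1.05 (1.02 to 1.08) within number 2, and its level differed far more between the numbers than between the groups.

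*E2F1* had 48.8 and 44.9 RPKM in the QKI-knockdown libraries, against 51.6 and 39.1 RPKM in the control libraries. Its ratio was 0.946 (0.895 to 1.000) within number 1 and 1.15 (1.10 to 1.20) within number 2, and so it had no common direction.

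In all, 6 of the 10 genes lay above control within both numbers (31.7% of tested genes did), 1 lay below control within both (16.6% did) and 3 changed side. The direction of such small differences depends on the scaling: with the library medians set equal, which shifts log2 differences by 0.04 within number 1 and 0.03 within number 2, 3 of the 10 lay above control within both numbers (*CCNE1*, *CDKN1A* and *CDKN1B*), beside 22.9% of tested genes, and 1 lay below. The median log2 difference was 0.07 over the 10 genes and 0.03 over all tested genes, and 8 of the 10 lay within 0.2 of 0. The counting intervals, probably too narrow, of numbers 1 and 2 did not meet for 6 genes, and *CCNE1*, *CDK2*, *CDK6* and *CDKN1B* were those for which the intervals met. Limma's test on log2(RPKM + 0.5), two-sided with Benjamini-Hochberg adjustment, called 0 of the 10 genes, where it called 0 of 11829 tested genes (0.0%), with 4 higher and 9 lower at an unadjusted p under 0.05, and voom called 0 as well when run on recovered reads. A further term for the library number, to allow for a batch, brought the called genes to 101 (0.854%), or 114 (0.964%) with medians centred and 136 (1.15%) with voom. *QKI* was called in these 3 fits, and none of the 10 genes was.

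**Figure D2:**
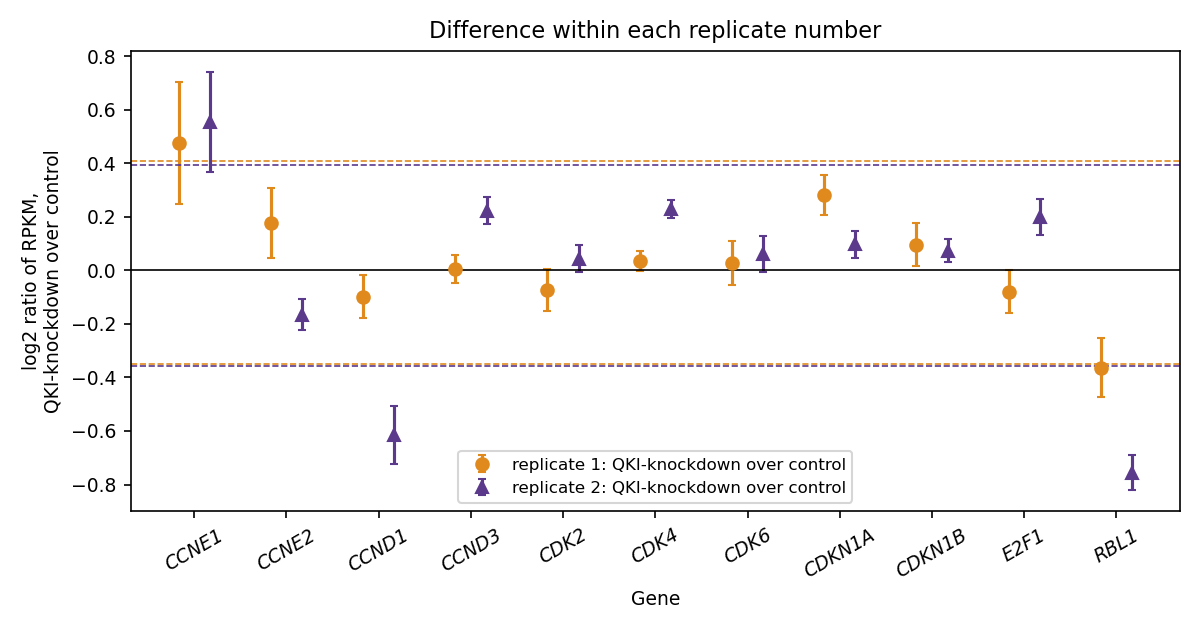
log2 ratio of RPKM, QKI-knockdown over control, within number 1 (circles) and number 2 (triangles) for the 10 genes and *RBL1*, with exact 95% counting intervals as bars. The dashed lines are the 5th and 95th percentiles over tested genes (-0.35 and 0.41 in number 1, -0.36 and 0.39 in number 2), and the *CCNE1* points lie above them in both numbers while those of *RBL1* lie below.

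The spread between the replicate numbers exceeded that between the groups for most of the 10 genes. For 9 of 10 genes the difference between the control libraries was larger than the mean difference between the groups, *CCNE1* being the exception. *CCNE2* was 1.38 higher on the log2 scale in number 2 than in number 1 in QKI-knockdown cells and 1.71 higher in control cells. *CDKN1B* was likewise higher in number 2, by 0.93 in QKI-knockdown cells and 0.95 in control cells. *CCND1* was the opposite case, with -1.75 in QKI-knockdown cells and -1.29 in control cells.

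In both groups 4 of the 10 genes (*CCNE2*, *CDK2*, *CDKN1A* and *CDKN1B*) were higher in number 2 and 6 were lower. *CCNE2* and *CCND1* differed more than 2-fold between the numbers in both groups, as did 11.1% of tested genes. For *CCNE1* this difference was small, -0.17 in QKI-knockdown cells and -0.24 in control cells. Over all tested genes the SD of the log2 difference was 0.660 between the QKI-knockdown libraries and 0.812 between the control libraries, but 0.196 between the groups within number 1 and 0.208 within number 2. The summed RPKM of the epithelial markers moved with the number as well, at 697 and 271 in the QKI-knockdown libraries 1 and 2, against 739 and 225 in the control libraries 1 and 2. Its part in the levels of these genes was not tested. The study sequenced at read lengths of 50 and 75 nt, which no label ties to a number.

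**Figure D3:**
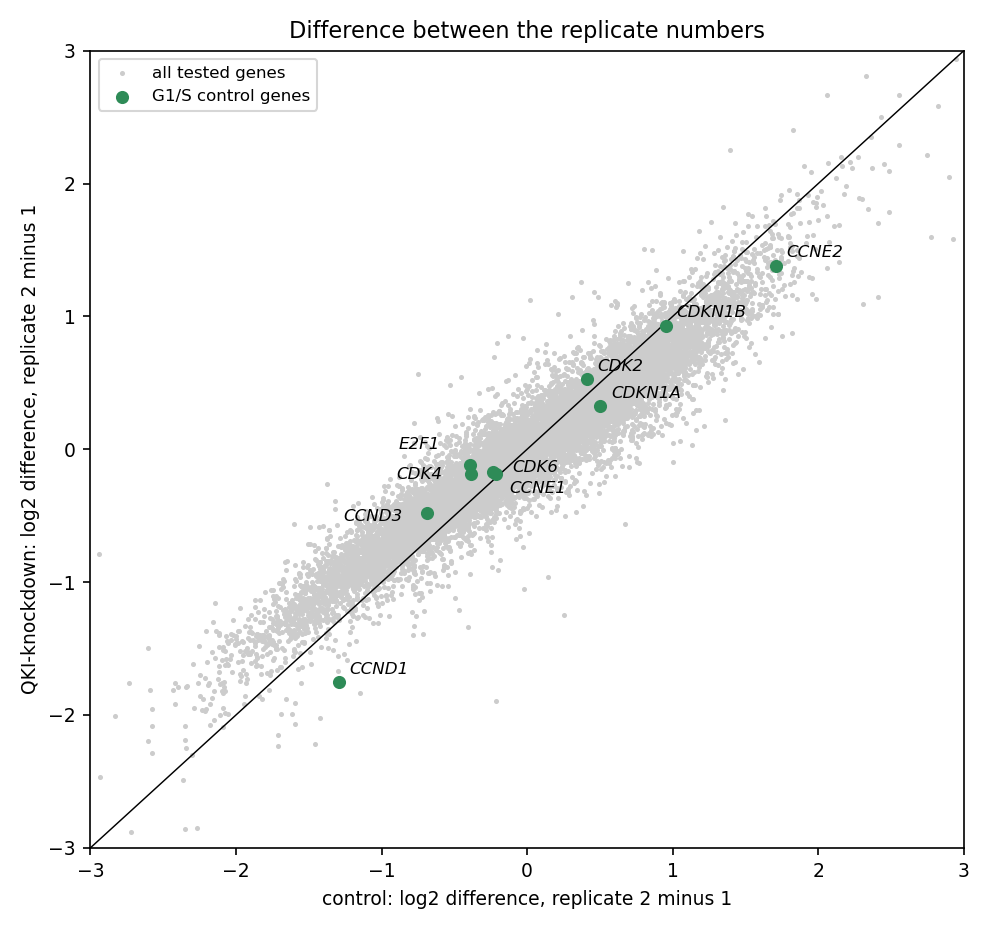
Difference between the replicate numbers (log2(RPKM + 0.5), number 2 minus number 1) in QKI-knockdown cells (vertical axis) and in control cells (horizontal axis), with 1 grey point per tested gene, the 10 genes in green and the line of equal values. *CCNE2* (1.38 in QKI-knockdown, 1.71 in control) and *CCND1* (-1.75 in QKI-knockdown, -1.29 in control) lie at opposite ends, *CCNE1* lies near 0, and 14 genes beyond the axis limits of 3 are not shown.

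RPKM is per length, so levels could be ordered within a library. By the mean over the 4 libraries the order was *CDK4* (69.0 RPKM), *CDK2* (55.4), *E2F1* (46.1), *CDKN1B* (32.6), *CDKN1A* (24.8), *CCND3* (17.0), *CCNE2* (12.8), *CCND1* (9.98), *CDK6* (8.19) and *CCNE1* (5.03). Each gene's range over the 4 libraries overlapped that of the next gene in the order, except between *CDK6* and *CCNE1*. *CCNE1* was the lowest of the 10 in 3 libraries, and in the QKI-knockdown library 2 *CCND1* was lower. The lengths behind the RPKM exceed the annotated exons for many genes (2.52 times the union of exons for *CCND3* and 0.605 times for *CDKN1B*), so the order is that of the deposited scale.

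Ratios of 2 genes within a library need no scaling between libraries. The ratio of *CCNE1* to *CDKN1B*, the cyclin to its inhibitor, was 0.275 and 0.125 in the QKI-knockdown libraries, against 0.212 and 0.0899 in the control libraries, a log2 change of 0.38 within number 1 and 0.48 within number 2. The ratio of *CCNE1* to *CCNE2* was 0.943 and 0.304 in the QKI-knockdown libraries, against 0.766 and 0.185 in the control libraries, a log2 change of 0.30 within number 1 and 0.72 within number 2. These changes carry the *CCNE1* difference by which that gene was picked, and between the numbers both ratios differed by more than between the groups.

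The ratio of *CCND1* to *CDKN1A* was 0.620 and 0.134 in the QKI-knockdown libraries, against 0.808 and 0.220 in the control libraries, a log2 change of -0.38 within number 1 and -0.71 within number 2. It too differed by more between the numbers than between the groups. The ratio of *CDK6* to *CDK4* was 0.116 and 0.115 in the QKI-knockdown libraries, against 0.116 and 0.130 in the control libraries. This was the steadiest of the 4 ratios, in every library near that of the others.

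The other genes of the pathway were taken in 5 lists with 117 genes, chosen by role. Limma's test without a term for the number called none of them, as it called 0.0% of all tested genes. Groups did not overlap for 15 of the 114 that were tested (13.2%), 9 of them above and 6 below, beside 8.6% of all tested genes. The first list held 15 other cyclins, kinases and inhibitors, of which 13 were tested, 1 lay above control within both numbers (7.69%), 4 below (30.8%) and 8 changed side, and the median log2 difference was -0.04. *CCNA2* (cyclin A2, the S phase partner of CDK2) had log2 differences of 0.13 within number 1 and -0.10 within number 2. *CDKN2C* (the inhibitor p18 of CDK4 and CDK6) had 29.8 and 30.7 RPKM in the QKI-knockdown libraries, against 33.5 and 32.5 RPKM in the control libraries. *CDKN2D* (the related inhibitor p19) had 4.47 and 6.43 RPKM in the QKI-knockdown libraries, against 6.72 and 6.79 RPKM in the control libraries, a log2 difference of -0.31. These were the 2 of the 13 tested genes of this list whose groups did not overlap (15.4%), and *CDKN2D* was named after its values were seen. *CDKN2A* (p16 and ARF) had 59.5 and 31.7 RPKM in the QKI-knockdown libraries, against 80.7 and 30.1 RPKM in the control libraries, with no common direction.

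Of 22 regulators of cyclin E-CDK2 and of the inhibitors, 11 lay above control within both numbers (50%), 5 below (22.7%) and 6 changed side, with a median log2 difference of 0.06. With the library medians set equal, 6 lay above and 8 below, so the list had no direction that held under both scalings. *CDC25A*, a phosphatase that activates CDK2, had 10.4 and 9.64 RPKM in the QKI-knockdown libraries, against 9.45 and 7.54 RPKM in the control libraries. Its groups did not overlap, nor did those of 4 others of this list (*SKP1* and *RBX1* above, *CKS1B* and *CUL4A* below, of which *SKP1*, *RBX1* and *CUL4A* were named after their values were seen). These 5 were 22.7% of the list, beside 13.2% over the 5 lists and 8.6% of all tested genes. The log2 differences of *SKP1* within number 2 (0.032) and of *RBX1* within number 1 (0.026) were small. Setting the library medians equal shifts such values by 0.033 and 0.035, so their direction depends on the scaling. *SKP2*, the ubiquitin ligase subunit that marks p27 for destruction, had 14.1 and 22.3 RPKM in the QKI-knockdown libraries, against 12.4 and 17.4 RPKM in the control libraries. *CKS1B*, the cofactor of SKP2, had 15.2 and 17.1 RPKM in the QKI-knockdown libraries, against 18.1 and 17.2 RPKM in the control libraries. It lay below control within number 1 (ratio 0.841, 0.785 to 0.901), but within number 2 the levels were nearly equal (0.995, 0.945 to 1.05). *FBXW7*, the ubiquitin ligase subunit that marks cyclin E, had 3.01 and 3.85 RPKM in the QKI-knockdown libraries, against 2.49 and 3.87 RPKM in the control libraries. *WEE1*, an inhibitory kinase, differed by 0.01 on the log2 scale.

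The RB and E2F family list held 17 tested genes, of which 8 lay above control within both numbers (47.1%), 1 below (5.88%) and 8 changed side, with a median log2 difference of 0.09, and with the library medians set equal 6 lay above and 1 below. *RBL1*, which encodes the pocket protein p107, was the 1 below, with 8.90 and 13.2 RPKM in the QKI-knockdown libraries, against 11.4 and 22.3 RPKM in the control libraries. Its ratio was 0.777 (0.720 to 0.838) within number 1 and 0.592 (0.566 to 0.620) within number 2, and its mean log2 difference was -0.54. It was low in both QKI-knockdown libraries for their number, yet the groups overlapped, because the QKI-knockdown library 2 stood above the control library 1. Leaving out 1 library moved that difference between -1.01 (without control library 1) and -0.07 (without control library 2), with -0.27 without QKI-knockdown library 1 and -0.81 without QKI-knockdown library 2. Limma gave an adjusted p of 1.00 without a term for the number and 0.00236 with it. With that term the standard error was 0.122 for *RBL1* and also for *RBL2*, a gene of similar level. The p thus leans on the pooled spread of such genes more than on that of *RBL1* itself. *RBL1* was the only one of the 114 tested list genes called in any fit, a share of 0.877% that is near the 0.854% of all tested genes called with that term, so the count says nothing particular to the lists.

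The other pocket protein genes were not low in this way. *RB1* had 15.0 and 29.6 RPKM in the QKI-knockdown libraries, against 13.8 and 36.2 RPKM in the control libraries, with log2 differences of 0.11 within number 1 and -0.29 within number 2. *RBL2* (p130) had 8.79 and 21.0 RPKM in the QKI-knockdown libraries, against 7.71 and 20.9 RPKM in the control libraries. *E2F3*, an activator like *E2F1*, had log2 differences of 0.22 within number 1 and 0.13 within number 2. *E2F4*, the factor that acts mainly with p107 and p130 as a repressor, had 35.7 and 23.4 RPKM in the QKI-knockdown libraries, against 38.8 and 20.2 RPKM in the control libraries.

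Of 40 E2F targets that act in DNA replication, 21 lay above control within both numbers (52.5%), 4 below (10%) and 15 changed side, with a median log2 difference of 0.07, with 0.12 within number 1 and 0.06 within number 2. With the library medians set equal, 15 lay above (37.5%) and 5 below (12.5%). Their summed level was 1649 and 1694 RPKM in the QKI-knockdown libraries, against 1602 and 1632 RPKM in the control libraries. *PCNA*, the sliding clamp of DNA polymerase, had 234 and 313 RPKM in the QKI-knockdown libraries, against 228 and 309.8 RPKM in the control libraries. *MCM2*, a subunit of the replicative helicase, had 88.3 and 68.1 RPKM in the QKI-knockdown libraries, against 89.3 and 67.5 RPKM in the control libraries. *CDC6*, which loads that helicase, had 32.5 and 43.6 RPKM in the QKI-knockdown libraries, against 29.7 and 42.8 RPKM in the control libraries. These 3 genes differed between the groups by less than 0.1 on the log2 scale.

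Of 22 genes of G2 and mitosis, 6 lay above control within both numbers (27.3%), 2 below (9.09%) and 14 changed side, with a median log2 difference of 0.01, and with the library medians set equal 3 lay above and 4 below. *CCNB1* (cyclin B1, which drives entry into mitosis) had 107 and 138 RPKM in the QKI-knockdown libraries, against 98.2 and 132 RPKM in the control libraries. *MKI67*, the gene of the proliferation marker Ki-67, had 83.8 and 84.4 RPKM in the QKI-knockdown libraries, against 73.1 and 94.0 RPKM in the control libraries, with no common direction.

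**Figure D4:**
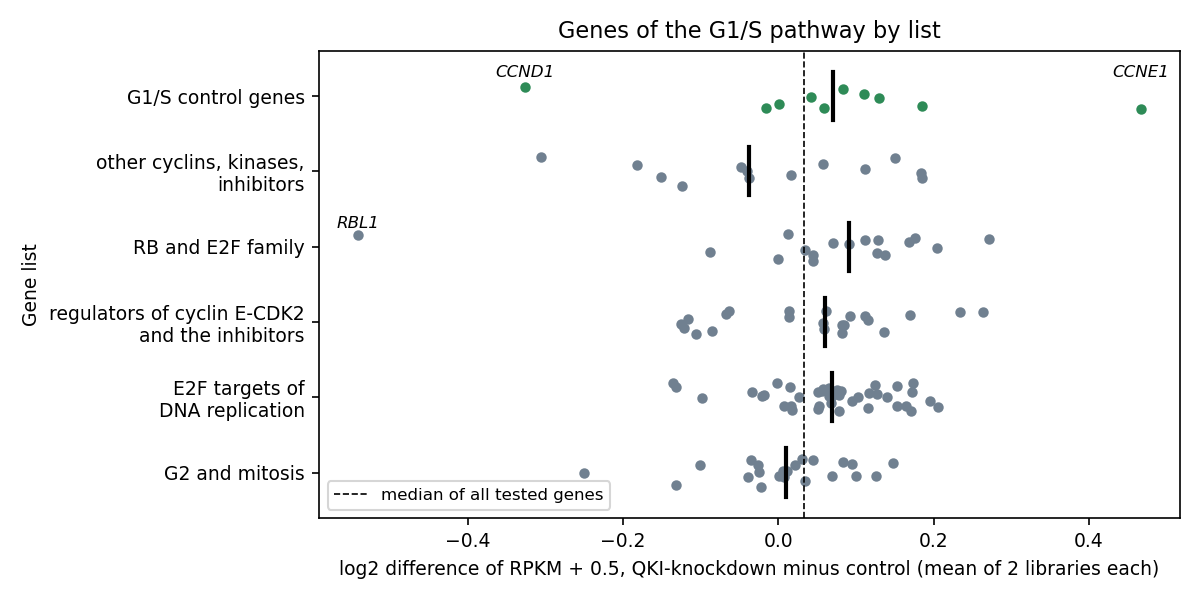
log2 difference of RPKM + 0.5 (QKI-knockdown minus control, means of 2 libraries each) for the tested genes of each list, with 1 point per gene, a black bar at the list's median and a dashed line at the median of all tested genes (0.03). *CCNE1* (0.47) and *CCND1* (-0.33) are the outermost of the 10 genes, *RBL1* (-0.54) is the lowest point of any list, and the list medians run between -0.04 and 0.09.

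The genes whose pattern over the 4 libraries was most like that of *CCNE1* were taken from 11009 others with a mean of at least 1 RPKM, by the smallest Euclidean distance between log2(RPKM + 0.5) values, each gene centred on its own mean. They were *LTB4R* (a receptor for leukotriene B4, distance 0.0347), *ZHX2* (a zinc finger and homeobox protein, 0.0503), *C2orf72* (0.0610), *NMB* (the peptide neuromedin B, 0.0845) and *ETNK2* (ethanolamine kinase 2, 0.0890). *LTB4R* had 5.33 and 4.74 RPKM in the QKI-knockdown libraries, against 3.94 and 3.16 RPKM in the control libraries. None of the 117 pathway genes was among these 5. With 4 libraries the likeness is a description of these libraries only.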

How the data were processed

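Expression was measured by single-end RNA-Seq in 4 libraries, 2 of QKI-knockdown and 2 of control BEAS2B cells. The authors aligned reads to hg19 and to junctions of Ensembl protein-coding genes, allowing 3 mismatches in Bowtie, whose version is not given in the sources used. They left out ambiguous reads and deposited 1 table of RPKM per library. How reads of overlapping genes were assigned is unknown. A gene without a value was set to 0. Whole reads were recovered from the spacing of the values (relative tolerance 1e-11, 100% whole). Library totals lay between 20052951 and 34862008 reads, the base of the counting intervals.

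For genes averaging 0.5 RPKM or more, log2(RPKM + 0.5) was tested by limma (version 3.58.1, trend option, R 4.3.3), with calls at an adjusted p under 0.05. Fold changes on this scale understate those of low genes. P-values measure only the spread between these libraries, and limma pools that spread over genes of similar level. With the block the standard error was 0.124 for *CCNE2* and 0.128 for *WEE1*. Yet the log2 differences within numbers 1 and 2 were 0.16 and -0.16 for *CCNE2*, and 0.01 and 0.01 for *WEE1*. P-values with the block thus hardly measure a gene's own spread. The fit was also run on simulated data. Their spread was set and not measured from these libraries, and some had no difference between the numbers, so no result here rests on them. Alternatives were pseudocounts of 0.1 and 1, no filter, a filter at 1 RPKM, median centring, voom on recovered reads, the replicate number as a block, and leaving out each library. The 10 genes and the lists were chosen with earlier results of these data known. Genes outside the 10 were named by role, and in addition where any fit called them or, by distance, where they were most like *CCNE1*. The exceptions *CDKN2D*, *SKP1*, *RBX1* and *CUL4A* were named after their values were seen, as genes whose groups did not overlap. Motifs were searched in GENCODE transcripts (v44lift37) and RefSeq promoters (GRCh38.p14).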

Additional observations from a re-analysis of the deposited data

How the results depend on the processing

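Limma without a block called 0 of 11829 genes. The QKI-knockdown and control libraries carry the same replicate numbers, but no source says that a number marks a shared culture or day, so the numbers are not known to pair the libraries. Across genes, the difference between the numbers correlated at 0.953 between QKI-knockdown and control cells. Fitted with the replicate block, 101 genes were called (58 higher and 43 lower), with the replicate block and median centring 114 (48 higher and 66 lower), and with voom on recovered reads and the replicate block 136 (55 higher and 81 lower). Leaving out a library gave 0 to 3 called genes, with 3 without control library 2, 1 without control library 1, 1 without QKI-knockdown library 2 and 0 without QKI-knockdown library 1. None of the 10 G1/S genes was called in any of 14 fits. *RBL1* was called in the 3 fits with the block, with log2 differences of -0.54, -0.57 and -0.61 and limma adjusted p of 0.00236, 0.000810 and 0.000503, and in no other fit. *QKI* was called in the same 3 fits.

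The log2 difference of *CCNE1* lay between 0.43 and 0.50 under 9 other settings and between 0.35 and 0.58 when a library was left out. For the other 9 genes, 81 of 81 values under other settings moved by less than the SD between libraries. This is a weak check, because the filters and the block alone cannot move these values. That SD also holds the difference between the numbers, and by its arithmetic leaving out a library cannot move a value beyond it. With a library left out 36 of 36 values stayed within it, which is therefore no check. Leaving out a library turned the sign of some, because it sets libraries of different numbers against each other: *CCND1* gave -1.20 without QKI-knockdown library 1, 0.55 without QKI-knockdown library 2, 0.32 without control library 1 and -0.97 without control library 2, and *CCNE2* gave values between -0.85 and 0.85. The medians of the 5 lists ran from -0.25 to 0.38 when a library was left out, with 11 of 20 moved by more than that SD, and from -0.07 to 0.09 otherwise. The 4 ratios within a library were also computed from recovered reads with 0.5 added. Those reads were derived from the same RPKM values, so the ratios had to stay nearly the same, and this is no separate check. Limma without the block did not call even *QKI*, whose mean log2 difference was -1.72, though the fits with the block called it on the same 4 libraries.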
